A study of Homo sapiens with 11 samples.

Results

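Lysozyme, granule enzymes and S100 proteins are followed here as 10 genes: *LYZ*, *BPI*, *MPO*, *ELANE*, *AZU1*, *PRTN3*, *CTSG*, *S100A8*, *S100A9* and *S100A12*. They were chosen by symbol, and all 10 had a row in the joined table of raw counts, which lists 38557 annotated genes. The counts come from MOLM-13, a single cultured line of human acute myeloid leukemia that carries a *KMT2A* rearrangement. For 72 h its cells had been kept in the solvent DMSO (4 libraries), in MI-503 at 1 µM (4 libraries) or in MI-503 at 1 µM plus PR-957 at 100 nM (3 libraries, replicates 1, 2 and 4, named the combination here). MI-503 blocks Menin, the partner through which KMT2A reaches its target genes, and PR-957 blocks PSMB8, a catalytic unit of the immunoproteasome. A group with PR-957 alone was not analysed here.

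These genes encode the stored weapons of granulocytes and monocytes. Promyelocytes pack myeloperoxidase and the serine proteases neutrophil elastase, proteinase 3 and cathepsin G into azurophil granules, together with azurocidin, a protease relative that has lost its activity. BPI is a granule protein that binds lipopolysaccharide and kills gram-negative bacteria, and lysozyme cleaves the cell wall of bacteria and is made in quantity by monocytes and macrophages. Calgranulins A, B and C, the products of *S100A8*, *S100A9* and *S100A12*, are calcium-binding proteins of the cytosol of neutrophils and monocytes that are released in inflammation.

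The genes lie at 6 places of the hg38 annotation given in the deposited counts. *LYZ* is at chr12:69348381-69354234, *BPI* at chr20:38304156-38337505, *MPO* at chr17:58269855-58280935 and *CTSG* at chr14:24573518-24576250. *AZU1* (chr19:827837-832018), *PRTN3* (chr19:840965-848175) and *ELANE* (chr19:850997-856250) follow one another within 28414 bases. *S100A9* (chr1:153357854-153361023), *S100A12* (chr1:153373711-153375621) and *S100A8* (chr1:153390032-153422583) are neighbors on chromosome 1. The stretch of *AZU1*, *PRTN3* and *ELANE* is present again on an alternate contig of hg38. Of the 100-base windows of their exons on chromosome 19, 100% recurred there for *AZU1* and *PRTN3* and 85.9% for *ELANE*. Fragments with several places had been left out of the counts, so the levels of these 3 genes are uncertain and may be understated. Orders of level and shares that include them hold for the counted fragments only. *S100A8* shares 9.09% of its exon bases with *S100A7A*, and the other 6 genes share none with a neighbor.

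Upstream sequences are shown for the 3 calgranulin genes, of which *S100A8* and *S100A9* changed in the same libraries while *S100A12* stayed near 0, and for *CTSG*, the granule enzyme with the highest counted level. They are the 250 bases before the annotated start in RefSeq (GRCh38.p14), 5′ to 3′ on the gene's strand. Capitals mark matches, on either strand, to a C/EBP motif (TTNNGCAA), a PU.1 motif (GAGGAA) or a TATA box (TATAAA), searched because C/EBP factors and PU.1 are known regulators of myeloid genes.
*S100A9*, chr1:153357604-153357853, plus strand: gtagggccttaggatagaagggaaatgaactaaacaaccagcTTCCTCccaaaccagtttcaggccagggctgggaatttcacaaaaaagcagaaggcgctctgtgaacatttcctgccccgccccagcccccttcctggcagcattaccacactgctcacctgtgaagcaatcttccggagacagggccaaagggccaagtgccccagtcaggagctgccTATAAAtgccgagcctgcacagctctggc
*S100A8*, chr1:153391189-153391438, minus strand: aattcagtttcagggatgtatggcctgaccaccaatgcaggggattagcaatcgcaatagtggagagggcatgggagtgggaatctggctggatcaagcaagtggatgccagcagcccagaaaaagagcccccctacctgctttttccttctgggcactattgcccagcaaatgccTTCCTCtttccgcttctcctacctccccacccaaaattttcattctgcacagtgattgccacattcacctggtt
*S100A12*, chr1:153375622-153375871, minus strand: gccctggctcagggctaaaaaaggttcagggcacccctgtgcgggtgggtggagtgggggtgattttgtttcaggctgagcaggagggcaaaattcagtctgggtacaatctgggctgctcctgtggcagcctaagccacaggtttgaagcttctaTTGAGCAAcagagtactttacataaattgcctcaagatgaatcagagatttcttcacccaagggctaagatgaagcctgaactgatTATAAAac
*CTSG*, chr14:24576251-24576500, minus strand: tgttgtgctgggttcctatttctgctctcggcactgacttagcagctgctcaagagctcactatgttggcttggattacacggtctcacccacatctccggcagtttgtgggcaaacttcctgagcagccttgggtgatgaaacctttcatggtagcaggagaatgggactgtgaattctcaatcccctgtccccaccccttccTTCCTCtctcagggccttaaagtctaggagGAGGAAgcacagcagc
A TATA box match began 29 bases before the start of *S100A9* and 8 bases before that of *S100A12*. *S100A8* has 3 starts in the table, and the window shown is that of the most upstream of them. In the annotation given with the counts this gene reaches further upstream, to position 153422583. A TATA box match began 29 bases before the next of the 3 starts, at position 153391073. A C/EBP match was found in the windows of *S100A12*, *PRTN3* and *AZU1*, and a PU.1 match in those of *S100A8*, *S100A9*, *PRTN3* and, at 2 places, *CTSG*. Among 35116 upstream windows of the same length, 9.05% held the C/EBP motif, 23.6% the PU.1 motif and 10.7% the TATA box. *LYZ*, *BPI*, *MPO* and *ELANE* had no entry in the table. A match says only that these letters are present.

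Libraries held between 18.9 and 41.2 M counted fragments, and 14683 genes passed the filter on low counts. Levels are given as CPM, a gene's counts relative to the library's summed counts of tested genes, scaled by TMM, and edgeR adjusted p refers to the quasi-likelihood test on counts, adjusted by the Benjamini-Hochberg method across every tested gene, with a gene called at an adjusted p under 0.05. Of the 10 genes, 9 passed the filter and *S100A12* did not. Combination replicate 1 stood apart from the other combination libraries. At 36 of 10041 genes with 5 CPM or more it was over 2-fold away from its fellow replicates, against 13 for replicate 4 and 4 for replicate 2. Results that rest on it are therefore given with and without it. Of 8 marker genes of the line, all were detected in each group. The defining genes *HBA2*, *HBB*, *MS4A1* and *EPCAM* of other lineages and *FCGR3B* of mature neutrophils summed to no more than 0.0463 CPM in any library. They were picked after their values had been seen, and other listed markers were detected. Over all libraries the whole erythroid list summed to 20.9 to 32.0 CPM, the lymphoid to 15.5 to 49.97 CPM, the epithelial to 24.6 to 44.9 CPM and that of mature neutrophils to 68.5 to 202 CPM, and the part of such cells in the results was not tested. Fewer cells that express a gene and less RNA per cell cannot be told apart in these bulk libraries.

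Counted together, 5 of 9 tested genes were called higher with MI-503 than with DMSO and 0 lower, where 21.9% of all tested genes were called higher and 29.4% lower in this contrast. At an unadjusted edgeR p under 0.05 the count of lower genes was also 0, as it was with DESeq2 and limma-voom. DESeq2 called 6 higher, *S100A8* in addition. With only the DMSO and MI-503 libraries in the fit, 8 genes were called higher, and without combination replicate 1, 7 were. The groups did not overlap for 6 of the 9 genes, all with higher MI-503 values, where 21.2% of all tested genes were apart with higher and 29.1% with lower values. Their median log2 fold change was 0.92, and that of all tested genes -0.03. In the combination against DMSO 4 of 9 were called higher and 0 lower, against 31.6% and 32.8% of all tested genes. The groups did not overlap for 3, all higher in the combination, where 29.3% of all tested genes were apart with higher and 31.2% with lower values. Here the members had a median log2 fold change of 0.55 beside 0.01 for all genes. No gene had an unadjusted edgeR p under 0.05 in the lower direction (0 genes), DESeq2 called 0 lower, and limma-voom called 1, *CTSG* (limma-voom adjusted p = 0.0480). The combination against MI-503 gave 2 genes called higher (*LYZ* and *S100A9*) and 3 called lower (*MPO*, *CTSG* and *ELANE*), with 23.5% of all tested genes called higher and 23.7% lower, and the median was -0.42 beside 0.00 for all genes. The groups were apart with higher values for 1 gene and with lower values for 3, against 23.8% and 23.7% of all tested genes. Both comparisons with DMSO use the same DMSO libraries.

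**Figure D1:**
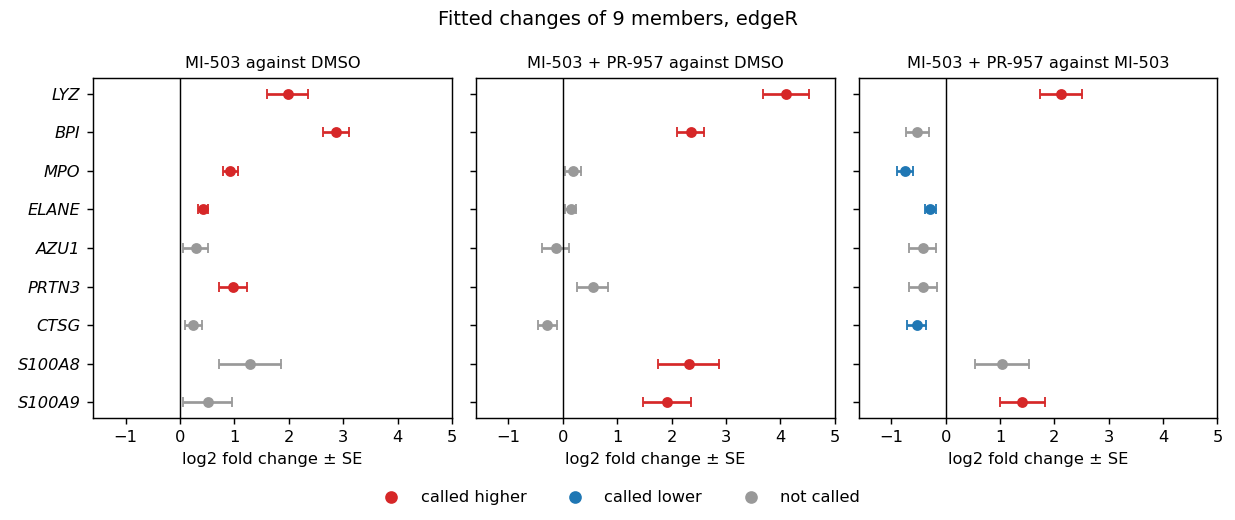
Fitted log2 fold change ± SE (horizontal axes) of the 9 tested genes in the 3 contrasts, with genes called higher in red, called lower in blue and not called in gray. *BPI* has the largest change under MI-503 (2.87), *LYZ* under the combination (4.11), and *MPO*, *ELANE* and *CTSG* are the 3 genes called lower when PR-957 was added to MI-503.

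Lysozyme showed the largest range of the 10 genes, and its level separated all 3 groups. *LYZ* was at 94.4, 106, 88.0 and 92.3 CPM in DMSO replicates 1 to 4 and at 373, 381, 371 and 378 CPM in the 4 MI-503 libraries. Combination libraries held 599 CPM in replicate 1, 1812 CPM in replicate 2 and 2513 CPM in replicate 4. The DMSO and MI-503 libraries were tight and did not overlap, and each combination library lay above every MI-503 library, with replicate 1 far below the other two. MI-503 raised *LYZ* 3.95-fold over DMSO (log2 fold change 1.98, SE 0.38, edgeR adjusted p = 0.00220), and the combination raised it 17.2-fold over DMSO (4.11, SE 0.42, edgeR adjusted p = 2.57e-05), or by 4.52 on the log2 scale without combination replicate 1 (edgeR adjusted p = 1.19e-09). Against MI-503, the combination was 4.37-fold higher (log2 fold change 2.13, SE 0.39, edgeR adjusted p = 0.00195). By itself, combination replicate 1 stood 1.60-fold above the MI-503 mean, replicate 2 4.82-fold and replicate 4 6.69-fold. Without replicate 1 the log2 fold change against MI-503 was 2.50 (edgeR adjusted p = 1.46e-07), and without replicate 4 it was 1.65 (edgeR adjusted p = 0.00658).

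BPI rose more steeply than lysozyme under MI-503 and was not called higher when PR-957 was added. *BPI* was at 5.74, 8.18, 5.03 and 5.93 CPM in DMSO and at 41.9, 43.3, 49.4 and 46.5 CPM in MI-503. The combination libraries held 21.6, 30.4 and 43.8 CPM in replicates 1, 2 and 4. All treated libraries lay above all DMSO libraries, replicates 1 and 2 of the combination lay below all MI-503 libraries and replicate 4 fell within their range. The rise over DMSO was 7.29-fold with MI-503 (log2 fold change 2.87, SE 0.24, edgeR adjusted p = 7.68e-06) and 5.10-fold with the combination (2.35, SE 0.25, edgeR adjusted p = 2.57e-05, and 2.61 without combination replicate 1, edgeR adjusted p = 1.62e-06). The combination and MI-503 differed by -0.52 on the log2 scale (SE 0.21), which was not called (edgeR adjusted p = 0.0762). Without combination replicate 1 this difference was -0.30 (edgeR adjusted p = 0.147), and without replicate 4 it was -0.87 (edgeR adjusted p = 8.45e-04). With all libraries, limma-voom called it lower (-0.60, limma-voom adjusted p = 0.00462), so both the choice of library and that of method changed the call.

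**Figure D2:**
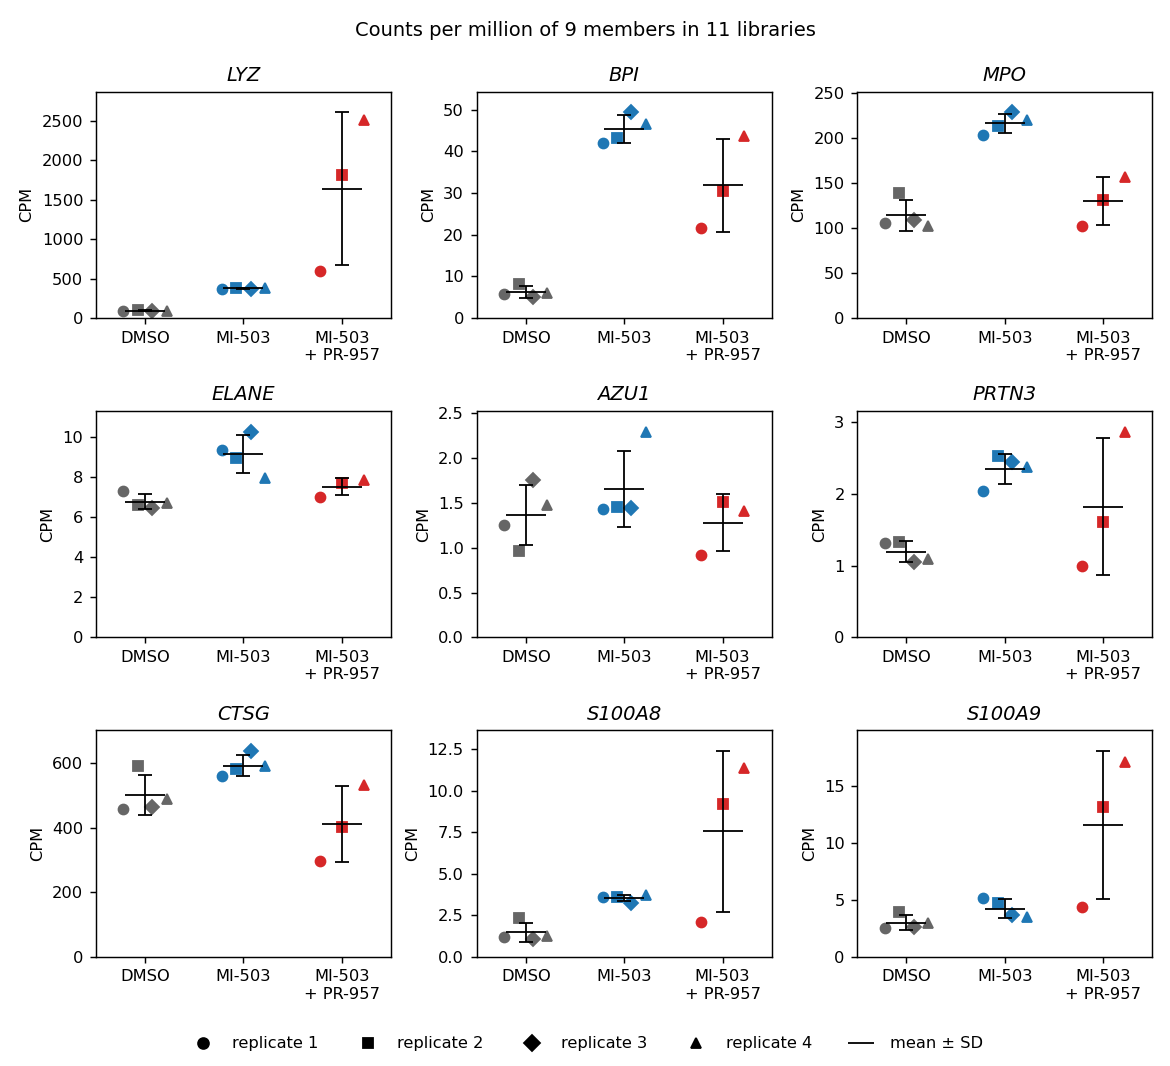
CPM (vertical axes, from 0) of the 9 tested genes in the DMSO, MI-503 and combination libraries, with 1 symbol per replicate and the mean ± SD of each group in black. *LYZ* climbs from 88.0 to 106 CPM in DMSO to between 599 and 2513 CPM in the combination, and combination replicate 1 (circle) is the lowest combination library in all 9 panels.

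Among the azurophil granule enzymes, 3 of 5 genes (*MPO*, *ELANE* and *PRTN3*) rose with MI-503, where 21.9% of all tested genes were called higher, and none was called between the combination and DMSO, where 31.6% of all tested genes were called higher and 32.8% lower. Myeloperoxidase, which makes hypochlorous acid, was at 106, 139, 109 and 102 CPM in DMSO and at 204, 213, 228 and 220 CPM in MI-503. *MPO* then stood at 103, 131 and 156 CPM in combination replicates 1, 2 and 4. MI-503 libraries lay above all others, and the combination libraries spread over the DMSO range and just past it. The change was 1.90-fold for MI-503 over DMSO (log2 fold change 0.92, SE 0.13, edgeR adjusted p = 2.67e-04), and the combination was at 0.599 of the MI-503 level (log2 fold change -0.74, SE 0.14, edgeR adjusted p = 0.00218). That fall was also called without combination replicate 1 (-0.62, edgeR adjusted p = 0.00485). Between the combination and DMSO *MPO* differed by 0.18 (SE 0.14, edgeR adjusted p = 0.292), and without combination replicate 1 by 0.35, which was called (edgeR adjusted p = 0.0439). Without combination replicate 4 this difference was 0.02 (edgeR adjusted p = 0.893).

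Cathepsin G had the highest counted level of the granule enzymes, and its change with MI-503 was not called. *CTSG* was at 459, 591, 463 and 488 CPM in DMSO and at 560, 581, 638 and 593 CPM in MI-503. The combination held 297 CPM in replicate 1, 403 CPM in replicate 2 and 533 CPM in replicate 4. DMSO and MI-503 overlapped through DMSO replicate 2, and all combination libraries lay below all MI-503 libraries, replicates 1 and 2 also below all DMSO libraries. The difference of MI-503 from DMSO was 0.25 (SE 0.16) on the log2 scale and was not called (edgeR adjusted p = 0.247). With only the DMSO and MI-503 libraries in the fit, this difference was 0.29 and was called (edgeR adjusted p = 0.0209). Against MI-503 the combination fell by 0.53 on the log2 scale (SE 0.18, edgeR adjusted p = 0.0364). This call was lost without combination replicate 1 (-0.37, edgeR adjusted p = 0.0656), without replicate 2 (-0.55, edgeR adjusted p = 0.0847) and without any 1 of the MI-503 libraries, where the adjusted p ran from 0.0524 to 0.0758. It was also lost with no filter on low counts (edgeR adjusted p = 0.0757) and with only the MI-503 and combination libraries in the fit (edgeR adjusted p = 0.0505). Against DMSO the combination differed by -0.29 (SE 0.18, edgeR adjusted p = 0.190), by -0.08 without combination replicate 1 (edgeR adjusted p = 0.662) and by -0.52 without replicate 4, which was called (edgeR adjusted p = 0.0140).

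Neutrophil elastase showed small changes. *ELANE* was at 7.32, 6.62, 6.45 and 6.74 CPM in DMSO, at 9.35, 8.98, 10.3 and 7.98 CPM in MI-503, and at 7.04, 7.73 and 7.85 CPM in the combination. The MI-503 libraries lay above all others, although MI-503 replicate 4 was close to combination replicate 4. MI-503 raised it by 0.43 on the log2 scale (SE 0.10, edgeR adjusted p = 9.50e-04), and the combination fell by 0.28 against MI-503 (SE 0.10, edgeR adjusted p = 0.0251). With the replicate number as a block the second call was lost (-0.26, edgeR adjusted p = 0.0591), as it was without combination replicate 1 (-0.26, edgeR adjusted p = 0.0556), MI-503 replicate 1 (-0.27, edgeR adjusted p = 0.0512) or MI-503 replicate 3 (-0.22, edgeR adjusted p = 0.0880). The combination and DMSO differed by 0.14 (SE 0.10, edgeR adjusted p = 0.240), or by 0.21 without combination replicate 1 (edgeR adjusted p = 0.105).

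Proteinase 3 and azurocidin were near 1 to 3 CPM and rested on 21 to 87 fragments per library. *PRTN3* was at 1.32, 1.33, 1.04 and 1.09 CPM in DMSO and at 2.04, 2.53, 2.44 and 2.37 CPM in MI-503. Its combination libraries held 0.992, 1.61 and 2.86 CPM in replicates 1, 2 and 4, so that replicate 1 lay below every DMSO library and replicate 4 above every MI-503 library. *PRTN3* rose 1.95-fold with MI-503 (log2 fold change 0.97, SE 0.26, edgeR adjusted p = 0.00413). The combination differed from DMSO by 0.55 (SE 0.28, edgeR adjusted p = 0.0975), by 0.95 without combination replicate 1 (edgeR adjusted p = 7.21e-04) and by 0.02 without replicate 4 (edgeR adjusted p = 0.942). From MI-503 it differed by -0.42 (SE 0.26, edgeR adjusted p = 0.193), by -0.06 without replicate 1 (edgeR adjusted p = 0.821) and by -0.98 without replicate 4 (edgeR adjusted p = 0.00110). *AZU1* was at 0.965 to 1.75 CPM in DMSO, at 1.43 to 2.29 CPM in MI-503 and at 0.921, 1.51 and 1.41 CPM in combination replicates 1, 2 and 4. These ranges overlapped, and no contrast of *AZU1* was called (edgeR adjusted p = 0.312, 0.668 and 0.169 for MI-503 against DMSO, the combination against DMSO and the combination against MI-503).

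Calgranulin transcripts were scarce in MOLM-13 and, like lysozyme, highest in combination replicates 2 and 4. *S100A8* was at 1.22, 2.34, 1.09 and 1.23 CPM in DMSO and at 3.61, 3.60, 3.26 and 3.73 CPM in MI-503. It was at 2.12 CPM in combination replicate 1, 9.18 CPM in replicate 2 and 11.4 CPM in replicate 4. MI-503 libraries lay above all DMSO libraries, and combination replicate 1 lay within the DMSO range while the other two lay above every other library. Over DMSO, *S100A8* was 4.98-fold higher in the combination (log2 fold change 2.32, SE 0.56, edgeR adjusted p = 0.00536, and 2.84 without combination replicate 1, edgeR adjusted p = 8.16e-14). With MI-503 alone the fitted change was 2.43-fold (1.28, SE 0.57) and was not called by edgeR (adjusted p = 0.0927) but was by DESeq2 (1.30, DESeq2 adjusted p = 0.0224), and the combination differed from MI-503 by 1.04 (SE 0.49, edgeR adjusted p = 0.116). All groups share 1 estimate of the spread, so combination replicate 1 also enters the test of MI-503 against DMSO. Without it that contrast was called (log2 fold change 1.33, edgeR adjusted p = 4.17e-07), and so was the combination against MI-503 (1.52, edgeR adjusted p = 4.00e-09). Over 19 alternative fits, the change of *S100A8* between the combination and MI-503 ran from 0.50 to 1.52. It was called in only 1 of them.

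*S100A9* encodes the partner of S100A8 in the heterodimer calprotectin. It was at 2.57, 3.91, 2.61 and 2.94 CPM in DMSO and at 5.14, 4.71, 3.63 and 3.48 CPM in MI-503. The combination libraries were at 4.41 CPM in replicate 1, 13.1 CPM in replicate 2 and 17.2 CPM in replicate 4. DMSO replicate 2 reached into the MI-503 range, and combination replicate 1 lay inside that range, with replicates 2 and 4 above all other libraries. The rise over DMSO in the combination was 3.77-fold (log2 fold change 1.91, SE 0.44, edgeR adjusted p = 0.00396, and 2.37 without combination replicate 1, edgeR adjusted p = 3.89e-12), and that over MI-503 was 2.65-fold (1.41, SE 0.41, edgeR adjusted p = 0.0206). The second call was lost with the replicate number as a block (1.27, edgeR adjusted p = 0.0575), with only the MI-503 and combination libraries in the fit (1.41, edgeR adjusted p = 0.0525), without combination replicate 2 (1.27, edgeR adjusted p = 0.0667) and without combination replicate 4 (0.92, edgeR adjusted p = 0.0999). Without combination replicate 1 it stood at 1.82 (edgeR adjusted p = 4.55e-10). MI-503 and DMSO differed by 0.51 (SE 0.46, edgeR adjusted p = 0.391), and by 0.56 without combination replicate 1, which was called (edgeR adjusted p = 0.00481).

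*S100A12* had 0 counts in 10 of 11 libraries and 2 counts in combination replicate 4, or 0.0744 CPM (exact Poisson 95% interval 0.00901 to 0.269 CPM, counting error only). In the libraries at 0 a count of 3, taken as the limit, equals 0.0708 to 0.151 CPM. A difference of *S100A12* between groups was not detectable at this depth.

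The 3 combination libraries kept the same order at nearly every gene. Replicate 1 was the lowest at 9 of 9 genes, which held for 38.4% of all tested genes. Replicate 4 was the highest at 8 of 9 genes, the exception being *AZU1*, where 35.8% of all tested genes had replicate 4 highest. The order from replicate 1 over 2 to 4 was thus seen at 8 genes and at 24.2% of all tested genes. Relative to the range of the 4 MI-503 libraries, replicate 1 was above it at 1 gene (*LYZ*), within it at 1 (*S100A9*) and below it at 7, where 37.5% of all tested genes were above and 36.8% below. Replicate 2 was above it at 3 genes (*LYZ*, *S100A8* and *S100A9*), within it at 1 and below it at 5, against 37.2% above and 38.5% below over all tested genes. Replicate 4 was above it at 4 genes (*PRTN3* in addition), within it at 1 and below it at 4, against 37.8% and 37.2%.

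Spread between the combination libraries was wide at most of the genes. Of the 6 genes that averaged 5 CPM or more, 5 (*LYZ*, *BPI*, *MPO*, *CTSG* and *S100A9*) had a coefficient of variation in the combination above 19.8%, the 95th percentile of the 10041 genes at that level. In DMSO, 3 of the 6 genes (*BPI*, *MPO* and *S100A9*) were above the 95th percentile of that group, 12.5%. In MI-503, 1 of the 6 (*S100A9*) was above that of its group, 10.7%. *LYZ* had a coefficient of variation of 59.0% in the combination, 1.28% in MI-503 and 8.15% in DMSO. *ELANE* was the exception in the combination, at 5.82% where the median gene was at 6.73%. Combination replicate 1 was also the deepest library, with 41.2 M fragments, and the part of depth in its values was not tested.

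**Figure D3:**
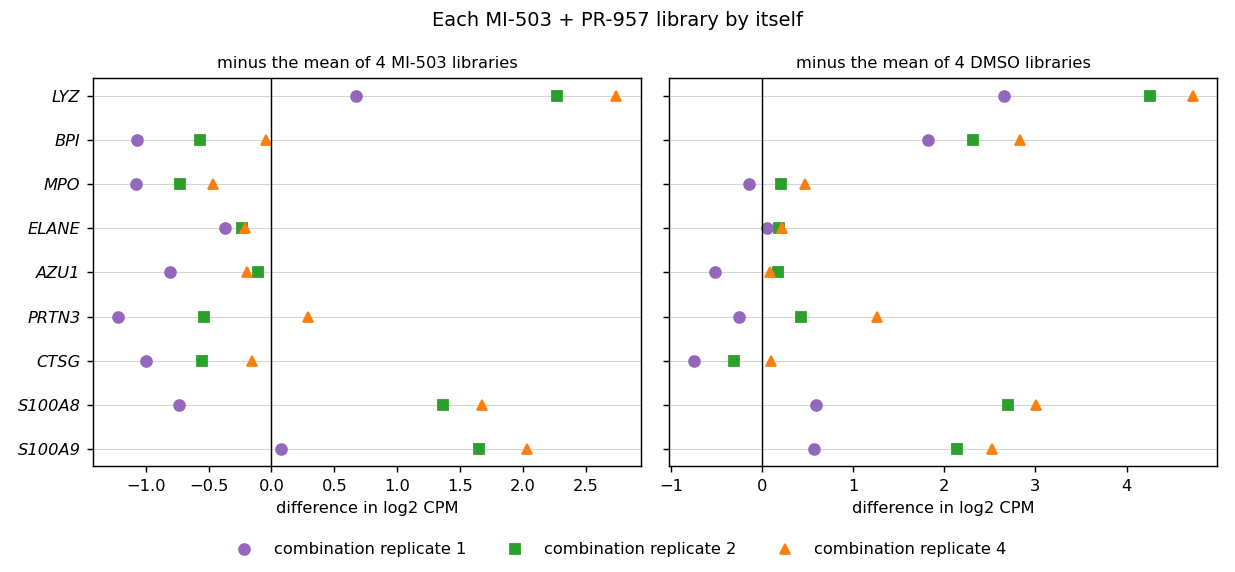
Log2 CPM of each combination library minus the mean log2 CPM of the MI-503 libraries (left) and of the DMSO libraries (right) for the 9 tested genes. For *LYZ* the differences from MI-503 are 0.67, 2.27 and 2.74 in replicates 1, 2 and 4, and for *S100A8* they are -0.73, 1.37 and 1.68, whereas those of *MPO* are -1.08, -0.73 and -0.47.

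Levels of different genes were set side by side per length, as TPM, which divides counts by transcript length and by the library's sum, with the exon length given in the files. In DMSO, *CTSG* (1232 TPM ± 157, SD, n = 4) exceeded *LYZ* (150.4 ± 12.2 TPM) and *MPO* (83.4 ± 12.5 TPM), and the ranges of these 3 genes were apart. *S100A9* (12.4 ± 2.61 TPM) came next, followed by *BPI* (7.68 ± 1.70 TPM), *ELANE* (6.15 ± 0.268 TPM) and *S100A8* (4.77 ± 1.91 TPM). *S100A9* at 10.3 to 16.1 TPM, *BPI* at 6.25 to 10.1 TPM, *ELANE* at 5.89 to 6.51 TPM and *S100A8* at 3.56 to 7.62 TPM had neighbors whose ranges overlapped, except that *S100A9* lay above *BPI*. *AZU1* (1.77 ± 0.446 TPM) and *PRTN3* (1.37 ± 0.159 TPM) were the lowest of those detected and overlapped, although fragments shared with the alternate contig are missing from both. With only the copy on chromosome 19 in the length, *ELANE* came to 9.46 TPM, *AZU1* to 3.53 TPM and *PRTN3* to 2.63 TPM. The mean of *ELANE* then passed that of *BPI*, but their ranges overlapped (9.07 to 10.02 TPM and 6.25 to 10.1 TPM).

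In MI-503 the order at the top was the same, with *CTSG* at 1466 ± 77.9 TPM, *LYZ* at 596 ± 13.04 TPM and *MPO* at 159 ± 8.01 TPM (SD, n = 4). *BPI*, at 56.2 ± 4.21 TPM, now came next, above *S100A9* (17.5 ± 3.26 TPM) and *S100A8* (11.6 ± 0.791 TPM) in every library. *LYZ* overtook *CTSG* in each of the 3 combination libraries, and stood at 997 TPM beside 769 TPM in replicate 1, at 3129.6 TPM beside 1084 TPM in replicate 2 and at 4232 TPM beside 1398 TPM in replicate 4. Ranked among all annotated genes by TPM, *LYZ* was at places 770 to 983 in the DMSO libraries, 164 to 175 in MI-503 and 105, 55 and 42 in combination replicates 1, 2 and 4. The ratio of *CTSG* to *MPO* in TPM, by contrast, was 14.3 to 16.03 in DMSO and 9.06 to 9.39 in MI-503, and 9.73, 10.4 and 11.5 in combination replicates 1, 2 and 4.

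**Figure D4:**
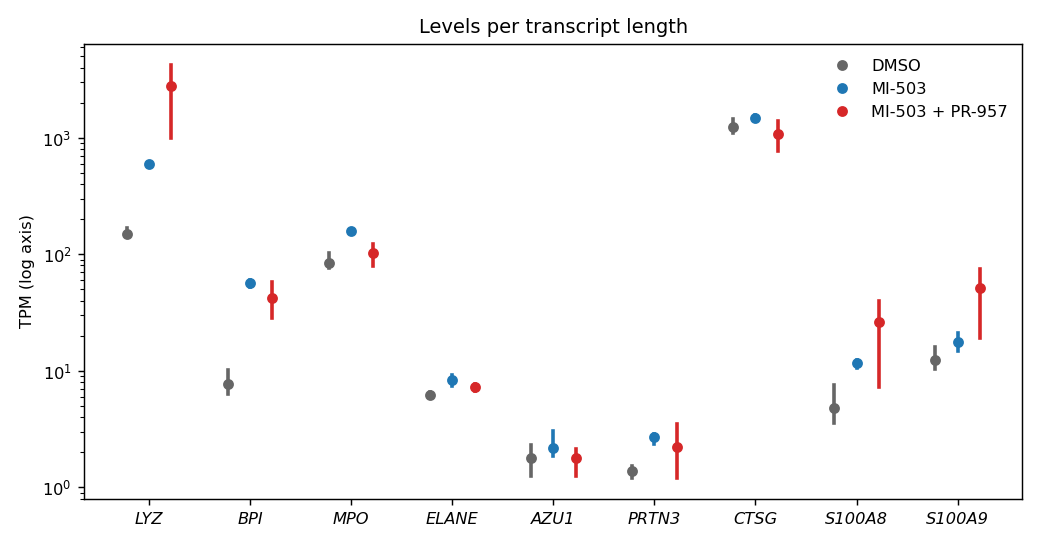
TPM (log axis) of the 9 tested genes, with a point at the mean of each group and a line from its lowest to its highest library. *CTSG* is the highest gene in DMSO (1232 TPM) and MI-503 (1466 TPM), and *LYZ* in the combination, where its libraries run from 997 to 4232 TPM.

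The make-up of the summed counts of the 10 genes moved accordingly. *CTSG* took 67.6% to 69.5% of their summed CPM in DMSO libraries and *LYZ* 12.3% to 13.9%. In MI-503 these shares were 46.7% to 48.8% for *CTSG* and 28.4% to 31.1% for *LYZ*. *LYZ* took 57.9% in combination replicate 1, 75.2% in replicate 2 and 76.5% in replicate 4, and *CTSG* 28.6%, 16.7% and 16.2%. The sum itself was 678 to 859.6 CPM in DMSO, 1199.65 to 1308 CPM in MI-503 and 1035, 2409 and 3286 CPM in combination replicates 1, 2 and 4.

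**Figure D5:**
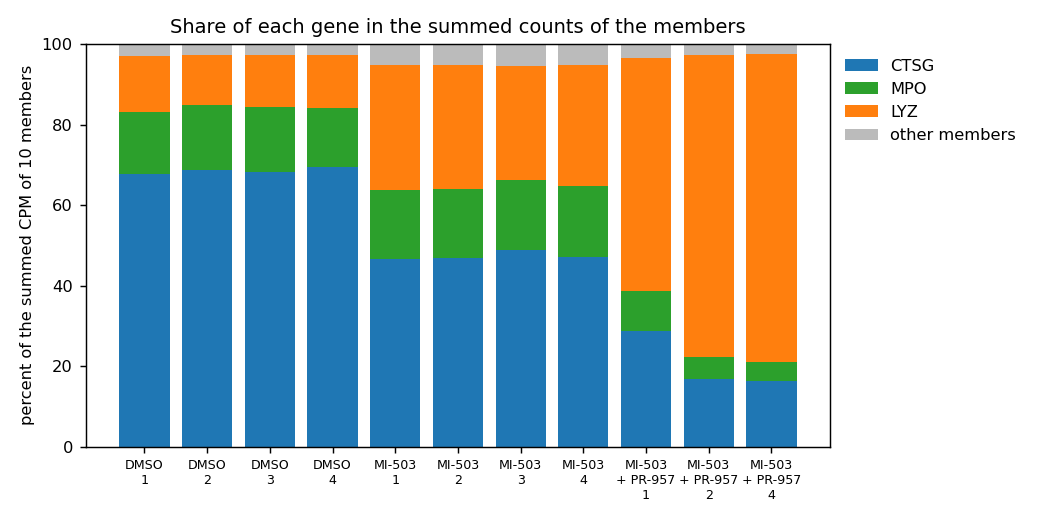
Percent of the summed CPM of the 10 genes taken by *CTSG*, *MPO*, *LYZ* and the other members (stacked bars from 0 to 100) in each of the 11 libraries, with the replicate number under the group. *LYZ* goes from 12.3% to 13.9% in DMSO to 28.4% to 31.1% in MI-503 and to 57.9%, 75.2% and 76.5% in combination replicates 1, 2 and 4.

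Of 15 other S100 genes listed, 9 were tested, and with MI-503 5 rose and 0 fell (median log2 fold change 0.40), where 21.9% of all tested genes were called higher and 29.4% lower. *S100A4* rose by 1.25 (SE 0.06, edgeR adjusted p = 3.47e-11) and *S100A6* by 1.07 (SE 0.08, edgeR adjusted p = 6.47e-08), both of them S100 proteins found in many cell types. On adding PR-957, 1 of the 9 rose and 2 fell (median -0.08), beside 23.5% and 23.7% of all tested genes. The one that rose was *S100A10*, the annexin A2 partner, from 39.7 CPM in MI-503 to 60.1 CPM in the combination (log2 fold change 0.60, SE 0.06, edgeR adjusted p = 1.29e-07, and 0.61 without combination replicate 1), with 57.2, 59.8 and 63.4 CPM in replicates 1, 2 and 4. *S100A4* fell by 0.39 in that contrast (SE 0.07, edgeR adjusted p = 8.46e-05, and by 0.48 without combination replicate 1) and *S100A1* by 0.50 (SE 0.17, edgeR adjusted p = 0.0243), the latter not called without combination replicate 1 (edgeR adjusted p = 0.0517).

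Further granule genes were called in part. Of 13 listed genes of azurophil and eosinophil granules, 9 were tested, of which 3 rose and 0 fell with MI-503 and 3 rose and 1 fell when PR-957 was added, where 21.9% of all tested genes were called higher with MI-503, and 23.5% higher and 23.7% lower on adding PR-957. *RNASE3*, the eosinophil cationic protein, rose by 0.81 with MI-503 (SE 0.25, edgeR adjusted p = 0.0202). *SRGN*, whose proteoglycan product serglycin holds granule enzymes in store, was at 1710.5 to 1781 CPM in MI-503 and at 1574, 2846 and 3341 CPM in combination replicates 1, 2 and 4 (log2 fold change 0.57, SE 0.20, edgeR adjusted p = 0.0451, and 0.81 without replicate 1, edgeR adjusted p = 2.93e-13). *CTSC*, the protease that activates elastase, proteinase 3 and cathepsin G, fell by 0.17 (SE 0.05, edgeR adjusted p = 0.00558) in the same contrast, or by 0.24 without combination replicate 1 (edgeR adjusted p = 1.65e-04). Of 18 listed genes of secondary and tertiary granules, 7 were tested, 4 of which rose with MI-503 and none fell (median 1.52), beside the same 21.9% and 29.4%. *CHI3L1*, a chitinase-like protein, rose by 2.16 with MI-503 (SE 0.14, edgeR adjusted p = 9.68e-07) and by 0.67 more with PR-957 (SE 0.14, edgeR adjusted p = 0.00359, and 0.84 without combination replicate 1), at 648, 1036 and 1022 CPM in combination replicates 1, 2 and 4. *SLPI*, an inhibitor of elastase and cathepsin G stored in granules, rose by 2.59 with MI-503 (SE 0.25, edgeR adjusted p = 9.27e-07) and then fell by 0.87 with PR-957 (SE 0.22, edgeR adjusted p = 0.00495), from 8.68 to 4.85 CPM, or by 0.58 without combination replicate 1 (edgeR adjusted p = 0.00170).

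The list of 12 protease inhibitors held cystatins beside inhibitors of the granule serine proteases. Of these 12 genes, 8 were tested and all 8 rose with MI-503 (median log2 fold change 0.81), where 21.9% of all tested genes were called higher. *CST7*, cystatin F, rose by 1.74 (SE 0.08, edgeR adjusted p = 1.13e-11), and *CST3*, cystatin C, by 1.15 (SE 0.06, edgeR adjusted p = 1.18e-10). With PR-957 on top 1 rose and 3 fell (median 0.01), beside 23.5% and 23.7% of all tested genes. *SERPINB1*, an inhibitor of elastase, proteinase 3 and cathepsin G, rose by 0.41 (SE 0.10, edgeR adjusted p = 0.00531), and *CST3* and *CST7* fell by 0.67 and 0.59 (edgeR adjusted p = 2.99e-07 and 8.18e-06). Without combination replicate 1 the change of *SERPINB1* was 0.54, that of *CST3* -0.61 and that of *CST7* -0.57, all called.

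Receptors of the secreted proteins were called higher with MI-503 at 5 of 7 tested genes (9 listed, median 0.55), where 21.9% of all tested genes were called higher. *TLR4*, through which S100A8 and S100A9 can signal, was at 0.641 to 1.19 CPM in DMSO and 7.41 to 11.1 CPM in MI-503 (log2 fold change 3.48, SE 0.20, edgeR adjusted p = 3.45e-10), and differed by 0.13 between the combination and MI-503 (SE 0.15, edgeR adjusted p = 0.489). *CD36*, a scavenger receptor, rose by 2.10 with MI-503 (SE 0.11, edgeR adjusted p = 3.48e-11). *ITGAM* and *ITGB2*, which together form the integrin Mac-1, went apart when PR-957 was added, by 0.32 (SE 0.07, edgeR adjusted p = 7.82e-04) and -0.26 (SE 0.06, edgeR adjusted p = 0.00164), or by 0.23 and -0.20 without combination replicate 1 (edgeR adjusted p = 0.00470 and 9.37e-04).

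Transcription factors known to act on granule genes were all 11 tested, with 8 higher and 0 lower under MI-503 (median 0.26) and 4 higher and 4 lower on adding PR-957 (median 0.00). All tested genes were called higher at 21.9% and lower at 29.4% in the first of these contrasts, and at 23.5% and 23.7% in the second. *CEBPE*, the C/EBP factor of late granulocyte maturation, rose by 1.52 with MI-503 (SE 0.30, edgeR adjusted p = 2.74e-04) at no more than 1.91 CPM in any library. On adding PR-957, *CEBPB* rose by 0.57 (SE 0.08, edgeR adjusted p = 1.81e-05) and *CEBPD* by 0.45 (SE 0.16, edgeR adjusted p = 0.0435), whereas *GFI1*, a repressor in granulocyte precursors, fell by 0.50 (SE 0.06, edgeR adjusted p = 5.59e-06) and *MYB*, a factor of immature myeloid cells, by 0.27 (SE 0.07, edgeR adjusted p = 0.00521, or by 0.18 without combination replicate 1, edgeR adjusted p = 0.00126). *CEBPD* was at 43.0 CPM in combination replicate 1 and at 71.7 and 76.0 CPM in replicates 2 and 4, beside 45.2 to 47.8 CPM in MI-503. Without combination replicate 1 the changes on adding PR-957 were 0.63 for *CEBPB*, 0.65 for *CEBPD* and -0.45 for *GFI1*, all called.

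Markers of mature neutrophils were tested at 3 of 5 genes, of which 2 rose with MI-503 (21.9% of all tested genes called higher), and *FCGR3B* had no count in any library. *CSF3R*, the receptor for granulocyte colony-stimulating factor, rose by 1.33 with MI-503 (SE 0.10, edgeR adjusted p = 2.53e-07), and *MMP25*, a membrane-bound protease, by 0.73 (SE 0.09, edgeR adjusted p = 2.58e-06). The summed level of the 5 genes was 68.5 to 90.6 CPM in DMSO, 169.9 to 195 CPM in MI-503 and 169 to 202 CPM in the combination. Of the 8 markers of MOLM-13, 4 were higher and 2 lower in the combination than in MI-503 (23.5% and 23.7% of all tested genes). *CD68*, a lysosomal protein of macrophages, rose by 1.04 (SE 0.25, edgeR adjusted p = 0.00763, and by 1.32 without combination replicate 1) and was at 107, 216 and 254 CPM in replicates 1, 2 and 4. *ITGAX*, the CD11c integrin, rose by 1.35 in that contrast (SE 0.16, edgeR adjusted p = 3.92e-05, and by 1.45 without combination replicate 1), at 38.0, 54.5 and 47.5 CPM. *CD4*, a surface receptor also found on monocytic cells, fell by 0.42 (SE 0.04, edgeR adjusted p = 2.99e-07, and by 0.46 without combination replicate 1), and *FLT3*, a receptor kinase of early blood cells, by 0.25 (SE 0.06, edgeR adjusted p = 0.00199, and by 0.38 without combination replicate 1). Of the markers of other lineages, 1 of 7 erythroid genes was tested (*EPOR*, log2 fold change 0.55 with MI-503, SE 0.06, edgeR adjusted p = 7.20e-07). For 7 lymphoid and 6 epithelial genes the numbers tested were 3 and 2, where *NKG7*, a granule membrane protein of cytotoxic cells, rose by 1.31 with MI-503 (SE 0.09, edgeR adjusted p = 8.74e-09), *KRT8* rose by 0.50 (SE 0.13, edgeR adjusted p = 0.00496) and *KRT18* fell by 0.36 (SE 0.09, edgeR adjusted p = 0.00168).

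The genes with the most similar profiles over the 11 libraries were sought among 10035 other genes of at least 5 CPM, as a description in which all points share the same libraries and groups. For *LYZ* they were *PLAU*, which encodes urokinase (Pearson r = 0.997), and *THEMIS2* (r = 0.996), for *BPI* *CD93* (r = 0.996) and *NAV3* (r = 0.993), and for *MPO* *CBX6* (r = 0.976) and *PPP1R9B* (r = 0.976). *S100A8* was most like *PLAC8* (r = 0.974) and *NAGK* (r = 0.968), and *S100A9* most like *LGALS3*, which encodes galectin 3 (r = 0.975), and *IFI30*, a lysosomal thiol reductase (r = 0.970). For *ELANE* the genes were *ZMYND11* (r = 0.946) and *ZNF524* (r = 0.939), for *PRTN3* *BRK1* (r = 0.959) and *PRDX5* (r = 0.949), for *CTSG* *UQCC2* (r = 0.953) and *GLCE* (r = 0.952), and for *AZU1* *THEM4* (r = 0.887) and *BRD3* (r = 0.832). Among the members themselves, the correlation of log2 CPM was 0.924 between *S100A8* and *S100A9*, 0.911 between *LYZ* and *S100A9*, 0.879 between *MPO* and *PRTN3* and -0.160 between *LYZ* and *CTSG*.

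On chromosome 19, within 50000 bases of *AZU1*, *PRTN3* and *ELANE*, 5 other genes were tested, which were named by position after their values had been seen. *PTBP1* (-0.36, edgeR adjusted p = 1.02e-05), *PLPPR3* (-0.30, edgeR adjusted p = 7.13e-05), *MED16* (-0.29, edgeR adjusted p = 2.63e-05), *R3HDM4* (-0.14, edgeR adjusted p = 0.0102) and *CFD*, complement factor D (-0.53, edgeR adjusted p = 0.00943), were all lower with MI-503 than with DMSO, whereas *PRTN3* and *ELANE* were higher. In this contrast 29.4% of all tested genes were called lower. On adding PR-957, *PTBP1* (-0.365, edgeR adjusted p = 2.69e-05) and *PLPPR3* (-0.46, edgeR adjusted p = 2.22e-06) fell again. *CFD* (0.92, edgeR adjusted p = 1.38e-04) and *R3HDM4* (0.23, edgeR adjusted p = 6.57e-04) rose, and *MED16* was not called (0.06, edgeR adjusted p = 0.369). All tested genes were called higher at 23.5% and lower at 23.7% there. On chromosome 1, no other gene within 50000 bases of the calgranulin genes was tested, and their 4 neighbors there, *PGLYRP3*, *PGLYRP4*, *S100A7A* and *S100A7*, had means of at most 0.0135 CPM.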

How the data were processed

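RNA was measured by sequencing in 11 libraries of MOLM-13 cells, grouped by the labels. The submitters' processing notes name Trimmomatic 0.39, STAR 2.7.10a, featureCounts 2.0.1 and DESeq2. The deposited values used are raw counts of fragments per gene, which the authors obtained with featureCounts, per the file headers over hg38 exons in the RefSeq annotation, unstranded and leaving out fragments with several mapped places. The joined table differed from the single-library counts in 0 cells. The authors' tables of differential expression, which hold log2 fold changes and p-values, were not used.

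Counts were filtered with filterByExpr (minimum count 10, minimum total 15), scaled by TMM (factors 0.956 to 1.06) and fitted in edgeR 4.0.16 under R 4.3.3, with a mean per group over all 11 libraries and 8 residual degrees of freedom. The fit was tested on simulated data with the same dispersion in every gene and group, so that test does not cover the wider spread of the combination libraries. Each contrast had a two-sided quasi-likelihood test with Benjamini-Hochberg adjustment over 14683 genes. CPM are relative to the summed counts of tested genes, log2 CPM have a prior count of 0.5, and SE is the fitted change divided by the root of the F statistic. DESeq2 1.42.0, limma 3.58.1, other scalings and filters, the replicate block and each library left out were alternatives. Python 3.11.15 with pandas 2.3.3, scipy 1.17.1 and matplotlib 3.10.9 served for the rest.

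The 10 genes, the other gene lists, the tests and the alternatives were chosen with earlier results of these data known. Of the other lists, at most the 2 called genes that rose most and the 2 that fell most per contrast, at a mean of at least 1 CPM, could be named, and for each member the 2 most similar genes. For the combination and MI-503, deviations from the group means of same-numbered libraries correlated at 0.141, 0.149 and 0.211 over 10041 genes, each over the limit of 0.1 set for a pairing. The main fit nevertheless had no block, and the replicate number entered as a block only in an alternative. Differently numbered libraries ran from -0.274 to 0.269, the highest being MI-503 replicate 3 with combination replicate 4, so the pairing is uncertain, and the blocked value stands beside a result whose call it changes. The sources used here do not state that replicates came from separate cultures, so p-values measure the spread between these libraries, which may be technical. Totals of 18.9 to 41.2 M fragments set the precision at low counts.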

Additional observations from a re-analysis of the deposited data

Results flagged for a closer look

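Of 18 groups of 4 libraries with a spread, tested for a library far from the others with Dixon's ratio (critical value 0.829 for 4 libraries), 2 held such a library, and chance flags about 1 in 20 groups. *S100A8* was at 2.34 CPM in DMSO replicate 2, where the other DMSO libraries lay between 1.09 and 1.23 CPM (ratio 0.886). DMSO replicate 2 was the highest DMSO library at 7 of the 9 tested genes, which held for 26.7% of all tested genes. *AZU1* was at 2.29 CPM in MI-503 replicate 4, where the other MI-503 libraries lay between 1.43 and 1.45 CPM (ratio 0.979), on 56 fragments. The combination, with 3 libraries, was not tested in this way.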

How the results depend on the processing

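Of 513 fitted changes of the 9 tested genes under 19 alternatives each, 480 kept their direction and their side of the threshold, 16 lost a call, 15 gained one and 2 changed sign. The changes of sign were those of *AZU1* in the combination against DMSO, which was -0.13 with all libraries, ran from -0.26 to 0.13 with each library left out in turn, and was above 0 without DMSO replicate 3 (0.01, edgeR adjusted p = 0.987) or combination replicate 1 (0.13, edgeR adjusted p = 0.696). Calls of *LYZ*, *BPI*, *MPO*, *ELANE* and *PRTN3* for MI-503 against DMSO, of *LYZ*, *BPI*, *S100A8* and *S100A9* for the combination against DMSO, and of *LYZ* and *MPO* for the combination against MI-503 were made under all 19 alternatives. With only the DMSO and MI-503 libraries in the fit, 8 genes were called higher with MI-503, adding *S100A8*, *S100A9* and *CTSG*. Limma-voom called 1 gene lower in the combination than in DMSO. It also called *BPI* lower in the combination than in MI-503, and DESeq2 called *S100A8* higher with MI-503. For the combination against MI-503, 1 gene was called higher with the replicate block, 1 with only those 2 groups in the fit and 1 at an adjusted p under 0.01, where 1 gene was also called lower.

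With each library left out in turn, the genes called higher numbered 5 to 7 for MI-503 against DMSO, 4 to 6 for the combination against DMSO and 1 to 3 for the combination against MI-503. Those called lower numbered 0 to 0, 0 to 1 and 1 to 5. For the pairs with DMSO the replicate numbers do not pair the libraries by their deviations (correlations of -0.252, 0.285, 0.0646 and 0.184 for replicates 1 to 4 of DMSO and MI-503, and of -0.0601, 0.110 and 0.0841 for replicates 1, 2 and 4 of DMSO and the combination), and the block left the counts of called genes at 5 and 4. It changed no call of the 9 genes other than those of *ELANE* and *S100A9* given above. Depth limits *AZU1*, *PRTN3*, *S100A8* and *S100A12* most, and alternate contigs limit the levels of *AZU1*, *PRTN3* and *ELANE*. No alternative changed the mapping, so the calls of *PRTN3* and *ELANE* hold for the counted fragments only. The length on chromosome 19 alone was added after seeing the data. A prior count of 2 moved none of the 27 differences of single combination libraries by more than the SD between them.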
